A study of Homo sapiens with 2 samples.

Results

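Expression of 10 genes of the Notch pathway was compared between the human leukaemia lines MOLT4 and K562. They are the receptor genes NOTCH1, NOTCH2 and NOTCH3, the transcription factor gene RBPJ, the ubiquitin ligase gene FBXW7, and the target genes HES1, HES4, HEY1, DTX1 and NRARP. The genes were taken by symbol from the authors' table of 60586 genes, where all 10 were found and all 10 were among the 18870 genes with a test. MOLT4, labelled as a T lymphoblast line, is an established line from T cell acute lymphoblastic leukaemia. K562, labelled as erythrocyte, is an established line from chronic myeloid leukaemia in blast crisis. No gene was altered and no agent was given in either line. Each line was cultured in serum-supplemented DMEM and gave RNA from a single flask for RNA sequencing. The design text speaks of 3 biological replicates, but the table holds 1 value per gene and line, and the sources used here do not say whether it pools replicates. No spread between replicates can therefore be shown for any value below, and the q-values are those of the authors' test. If each line gave a single library, they compare libraries rather than lines, and the spread they measure may be technical.

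Levels are in FPKM, fragment counts divided by transcript length and by the size of the library, so that levels of different genes can be set side by side per length. The depth is unknown. The lines expressed the genes of their labelled lineages: all 10 T cell markers, among them CD3E and LCK, were higher in MOLT4, at 23.9 to 648 FPKM, and erythroid markers such as GATA1, at 151 FPKM, and KLF1, at 66.9 FPKM, were higher in K562. In K562 the T cell markers DNTT and CD1E were listed at 0, whereas CD3D was at 29.7 FPKM and TCF7 at 4.85 FPKM. In MOLT4 the erythroid genes GATA1, HBZ and ALAS2 were listed at 0, whereas TFRC, the transferrin receptor gene of dividing cells, was at 129.9 FPKM.

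Notch receptors are cell surface proteins that are cut after a ligand on a neighbouring cell binds them. The released intracellular domain enters the nucleus and joins RBPJ, which sits on DNA and otherwise recruits corepressors, and the complex switches on targets such as the HES and HEY repressors, DTX1 and NRARP. FBXW7 marks the intracellular domain for degradation. In the thymus the pathway directs progenitors into the T lineage, and T cell acute lymphoblastic leukaemia often carries activating NOTCH1 mutations, MOLT4 among the lines described with them. FPKM values per gene hold no information on alleles or on the cleaved protein.

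RBPJ binds the core letters TGGGAA, and the start regions of HES1, HES4 and NRARP are shown because NRARP was called between the lines while the HES genes were not. The sequences are the 250 bases before the RefSeq start of each gene on GRCh38.p14, read 5′ to 3′ on the gene's strand, with TGGGAA or its reverse complement TTCCCA in capitals. They lie at chr3:194135898-194136147 (plus strand) for HES1, at chr1:1000098-1000347 (minus strand) for HES4 and at chr9:137302272-137302521 (minus strand) for NRARP.
HES1: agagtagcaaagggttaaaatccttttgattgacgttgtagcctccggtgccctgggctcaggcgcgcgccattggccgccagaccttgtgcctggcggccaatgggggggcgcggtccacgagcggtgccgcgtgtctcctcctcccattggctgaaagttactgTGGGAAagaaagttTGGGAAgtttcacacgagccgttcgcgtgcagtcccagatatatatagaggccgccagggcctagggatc
HES4: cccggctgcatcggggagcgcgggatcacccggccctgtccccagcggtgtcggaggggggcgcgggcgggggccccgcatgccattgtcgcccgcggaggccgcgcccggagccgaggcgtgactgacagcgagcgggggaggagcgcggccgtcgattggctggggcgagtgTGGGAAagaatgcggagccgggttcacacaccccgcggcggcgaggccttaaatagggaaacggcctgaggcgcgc
NRARP: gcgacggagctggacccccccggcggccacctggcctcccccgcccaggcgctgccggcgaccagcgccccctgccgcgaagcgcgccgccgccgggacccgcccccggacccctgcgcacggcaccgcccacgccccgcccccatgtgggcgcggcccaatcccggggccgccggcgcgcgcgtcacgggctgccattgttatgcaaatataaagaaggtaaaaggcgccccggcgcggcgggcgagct
The HES1 window holds TGGGAA at 2 places, whose first bases lie 84 and 70 bases before the start. The HES4 window holds it at 1 place, 76 bases before the RefSeq start. The annotation used for gene positions below starts HES4 at 1000172, a base inside this window that the match spans. The letters TGGGAA or TTCCCA are not in the NRARP window. Of 35116 RefSeq windows of the same length, 20.8% hold these letters at least once and 2.90% at 2 or more places, counting both strands. The HES1 window also holds 3 matches, on either strand, of CACNAG, a sequence that HES proteins bind. Of all windows 32.0% hold it at least once and 0.911% at 3 or more places. The HES4 and NRARP windows hold none, and no CACNAG match overlaps a TGGGAA match in the HES1 window. Of the 8 genes with a window examined, RBPJ was the other with a TGGGAA match, at 2 places in 1 of its 5 windows. CACNAG also had matches in windows of NOTCH3, RBPJ and FBXW7. No window of the targets HEY1 and DTX1 was examined. A match in these windows is a description of letters and not a bound site, and its relation to the levels was not tested.

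MOLT4 had the higher levels of all 3 receptors, of RBPJ and of FBXW7, whereas the 5 targets were split. Of the 10 genes, 7 passed the authors' test, with a q (Cuffdiff, Benjamini-Hochberg adjusted) not above 0.05 in their deposited table, against 42.2% of all tested genes; these are the genes named as called below. Called higher in MOLT4 were 6 of the 10 genes, against 18.8% of all tested genes. Called higher in K562 was 1 of the 10, NRARP, against 23.4% of all tested genes. All 10 genes averaged 1 FPKM or more over the lines. Of the 14103 tested genes at that level, 46.0% were called, with 20.8% higher in MOLT4 and 25.3% higher in K562. The 7 called genes of the 10 have the smallest q listed in the authors' deposited table, 0.000203. It belongs to a p of 5e-05 that 4647 genes share, so the q does not rank them. The ratio used below is log2((MOLT4 + 1)/(K562 + 1)), with a pseudocount of 1 FPKM that understates the change of low genes. By this ratio 7 of the 10 genes were at least 2-fold apart, against 32.3% of tested genes. That share includes tested genes averaging below 1 FPKM, whose ratios the pseudocount shrinks most. A share without them is not given here. The median over the 10 genes was 1.08, and over all tested genes it was -0.06.

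**Figure D1:**
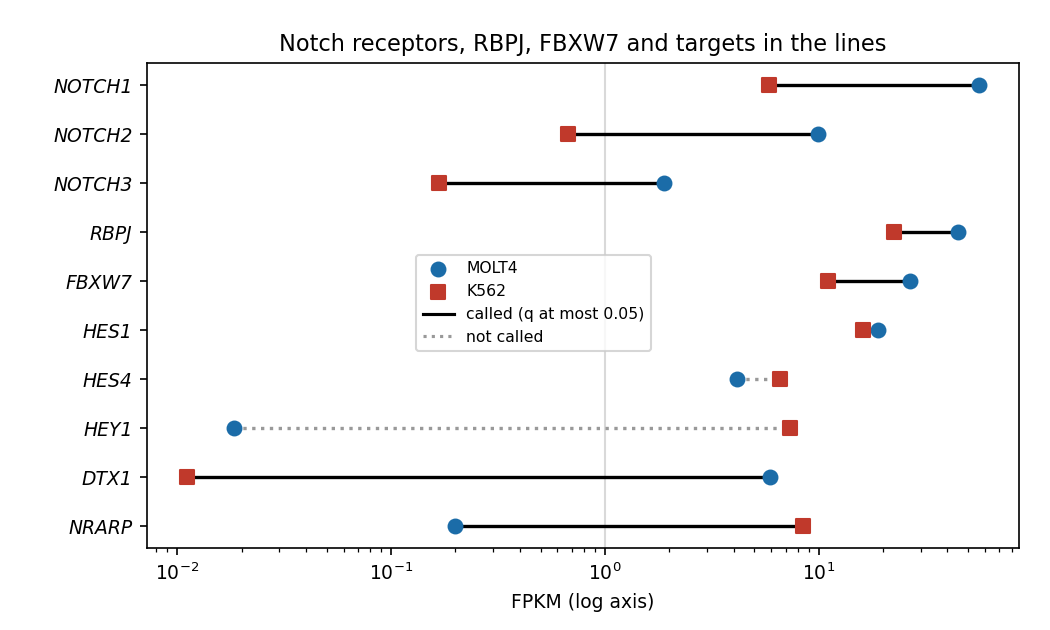
Level of each gene in MOLT4 (circles) and K562 (squares) as FPKM on a log axis, 1 value per line, joined by a solid line where the authors' test called the gene and by a dotted line where it did not. The receptors, RBPJ and FBXW7 lie higher in MOLT4, DTX1 and HEY1 lie far apart in opposite directions, and HES1 lies at 18.8 and 16.1 FPKM.

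NOTCH1, the receptor that commits thymus progenitors to the T lineage (ENSG00000148400.12, chromosome 9, 136494433 to 136545786, minus strand, GRCh38), was at 56.1 FPKM in MOLT4 against 5.88 in K562. MOLT4 was 9.53-fold higher, with a log2 ratio of 3.05. In MOLT4, NOTCH1 was the highest of the 10 genes and exceeded 86.6% of the 13301 tested protein-coding genes. In K562 it exceeded 36.7% of them and ranked 7 among the 10 genes.

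NOTCH2, a receptor best known in the B lineage for marginal zone cells (ENSG00000134250.20, chromosome 1, 119911553 to 120069626, minus strand), was at 9.90 FPKM in MOLT4 against 0.674 in K562, a log2 ratio of 2.70. Near-identical copies of its first exons exist on chromosome 1, and reads can be split among them, so the NOTCH2 values are uncertain. The copies were low: NOTCH2NLA was at 1.38 FPKM in MOLT4 against 1.02 in K562, above the NOTCH2 level of K562. NOTCH2NLC was at 0.826 and 0.103 FPKM and NOTCH2NLB at 0.192 and 0.187 FPKM in MOLT4 and K562.

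NOTCH3, a receptor that is also a Notch target in T cell leukaemia (ENSG00000074181.9, chromosome 19, 15159038 to 15200981, minus strand), was at 1.89 FPKM in MOLT4 against 0.168 in K562. It was the lowest of the 3 receptors in each line, and its log2 ratio of 1.30 is the most reduced of the 3 by the pseudocount: without it the ratio is 3.49. Without a pseudocount the 3 receptors were 9.53-fold, 14.7-fold and 11.2-fold higher in MOLT4 for NOTCH1, NOTCH2 and NOTCH3. NOTCH4, the remaining human receptor, went the other way, at 0.295 FPKM in MOLT4 against 1.25 in K562, and was not called in the authors' deposited table (q = 0.157).

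Summed over the 4 receptors, MOLT4 had 68.2 FPKM and K562 7.98 FPKM. NOTCH1 made up 82.3% of that sum in MOLT4 and 73.7% in K562, and the order NOTCH1, NOTCH2, NOTCH3 was the same in each line. NOTCH2 gave 14.5% and 8.44% of the sum, and NOTCH4 gave 0.433% in MOLT4 and 15.7% in K562.

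**Figure D2:**
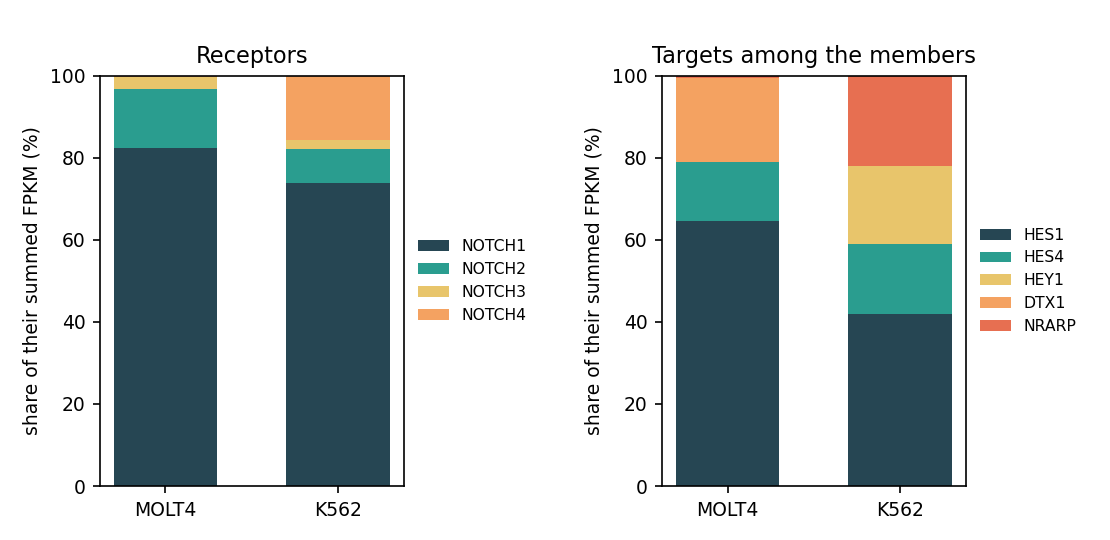
Share of the summed FPKM of the 4 Notch receptors (left) and of the 5 targets (right) that each gene takes in MOLT4 and K562, in percent, 1 value per line. NOTCH1 takes 82.3% and 73.7% of the receptor sum, while DTX1 takes 20.4% of the target sum in MOLT4 and 0.0288% in K562.

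RBPJ, the DNA-binding factor of the pathway (ENSG00000168214.20, chromosome 4, 26163455 to 26435131, plus strand), was at 45.0 FPKM in MOLT4 against 22.5 in K562. MOLT4 was 2.0-fold higher, a log2 ratio of 0.97. RBPJ was the highest of the 10 genes in K562 and the second highest, after NOTCH1, in MOLT4. Per FPKM of summed receptor there was 0.660 FPKM of RBPJ in MOLT4 and 2.81 FPKM in K562. Its processed copies RBPJP2, RBPJP5, RBPJP6 and RBPJP7 were listed at 0 in each line, and its relative RBPJL reached 0.0470 FPKM.

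FBXW7, which binds the phosphorylated intracellular domain for a ubiquitin ligase and also targets MYC and cyclin E (ENSG00000109670.16, chromosome 4, 152320544 to 152536063, minus strand), was at 26.6 FPKM in MOLT4 against 11.1 in K562. MOLT4 was 2.40-fold higher, a log2 ratio of 1.19, and the gene ranked 3 of 10 in each line. Its antisense gene FBXW7-AS1 was at 1.67 FPKM in MOLT4 against 0.556 in K562. Whether the counting used strand is not given, so reads of the pair cannot be told apart.

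Of the 5 targets, DTX1 was called toward MOLT4 and NRARP toward K562, and 3 were not called. HES1, a repressor that in thymocytes acts downstream of Notch (ENSG00000114315.4, chromosome 3, 194136145 to 194138732, plus strand), was at 18.8 FPKM in MOLT4 against 16.1 in K562. The log2 ratio was 0.22, and the gene was not called in the authors' deposited table (q = 0.409). That does not show that the lines have the same level. It was the highest of the 5 targets in each line, above 63.1% of tested protein-coding genes in MOLT4 and above 57.7% in K562. For each FPKM of NOTCH1 there was 0.336 FPKM of HES1 in MOLT4 and 2.73 FPKM in K562.

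HES4, a repressor of the same family (ENSG00000188290.10, chromosome 1, 998962 to 1000172, minus strand), was at 4.13 FPKM in MOLT4 against 6.57 in K562. The level was 1.59-fold higher in K562, a log2 ratio of -0.56. It was not called in the authors' deposited table (q = 0.0926), although its p there was 0.0437. HES1 and HES4 were the 2 targets less than 2-fold apart.

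HEY1, the family member known from heart and vessel development (ENSG00000164683.17, chromosome 8, 79764010 to 79767863, minus strand), was at 0.0184 FPKM in MOLT4 against 7.32 in K562. The log2 ratio was -3.03, yet the gene was not called in the authors' deposited table (q = 0.333). HEY1 was the lowest of the 10 genes in MOLT4 and ranked 5 in K562.

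DTX1, a ubiquitin ligase gene that Notch induces in lymphoid cells and whose product modulates the receptor (ENSG00000135144.7, chromosome 12, 113056709 to 113098028, plus strand), had the reverse pattern. It was at 5.94 FPKM in MOLT4 against 0.0111 in K562, a log2 ratio of 2.78, and was called. It was the lowest of the 10 genes in K562 and ranked 6 in MOLT4.

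NRARP, an ankyrin repeat protein that Notch induces and that dampens the intracellular domain (ENSG00000198435.4, chromosome 9, 137300482 to 137302251, minus strand), was at 0.199 FPKM in MOLT4 against 8.45 in K562. K562 was 42.4-fold higher, a log2 ratio of -2.98. NRARP was thus the sole member called higher in K562, in the line with the lower NOTCH1. In MOLT4 it exceeded 9.44% of tested protein-coding genes and in K562 43.2%.

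The summed level of the 5 targets was 29.1 FPKM in MOLT4 against 38.4 in K562, whereas the summed receptor level was higher in MOLT4. The target sums include HES1, HES4 and HEY1, which were not called, and their difference was not tested. In MOLT4 the target sum was 64.7% HES1, 20.4% DTX1 and 14.2% HES4. In K562 it was 41.8% HES1, 22.0% NRARP, 19.0% HEY1 and 17.1% HES4.

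**Figure D3:**
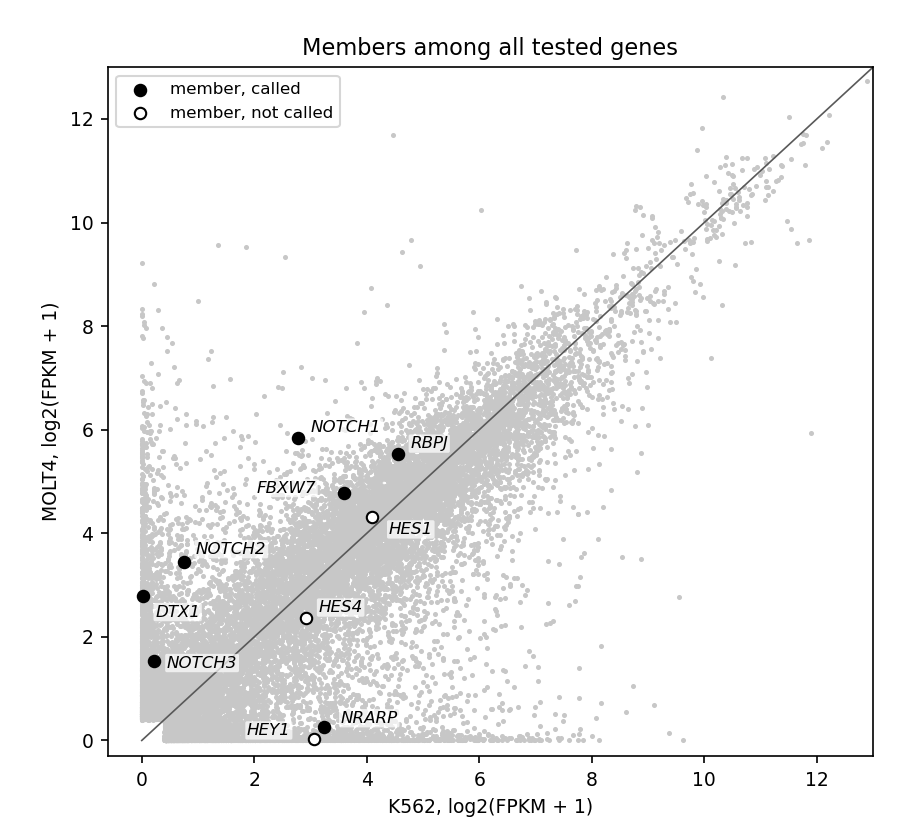
Level in MOLT4 against K562 as log2(FPKM + 1) for the 18870 tested genes (grey), with the 10 genes marked as called (filled) or not called (open); the line marks equal levels. The receptors and DTX1 lie above the line, HES1 and HES4 near it, and NRARP and HEY1 close to the lower axis.

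The pattern of NOTCH1, high in MOLT4 and low in K562, was matched most closely by the beta-arrestin gene ARRB2, at 54.4 and 6.45 FPKM, by the glutaredoxin gene GLRX, at 60.1 and 4.99 FPKM, and by NRROS, which holds latent TGF-beta, at 47.8 and 6.22 FPKM. Likeness was the distance in log2(FPKM + 1) over the 2 lines among 13291 protein-coding genes, at 0.12, 0.22 and 0.24. For DTX1 the nearest genes were CRIP1, the tyrosine kinase gene BLK and the thymosin gene TMSB15B, at 5.93, 5.94 and 5.98 FPKM in MOLT4 and at most 0.0130 FPKM in K562. With 2 values per gene, likeness says little beyond these levels.

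The other pathway genes moved in each direction. Of 83 such genes, 64 averaged 1 FPKM or more over the lines and count as measured here. The authors' deposited table called 21 of these higher in MOLT4 and 15 in K562 and left 28 uncalled. Among all 14103 tested genes at that level, 46.0% were called, with K562 the higher line for 25.3% and MOLT4 for 20.8%. The same shares are the background for the counts of each list below. The median log2 ratio was 0.20 over the 64 genes and -0.06 over the 14103.

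**Figure D4:**
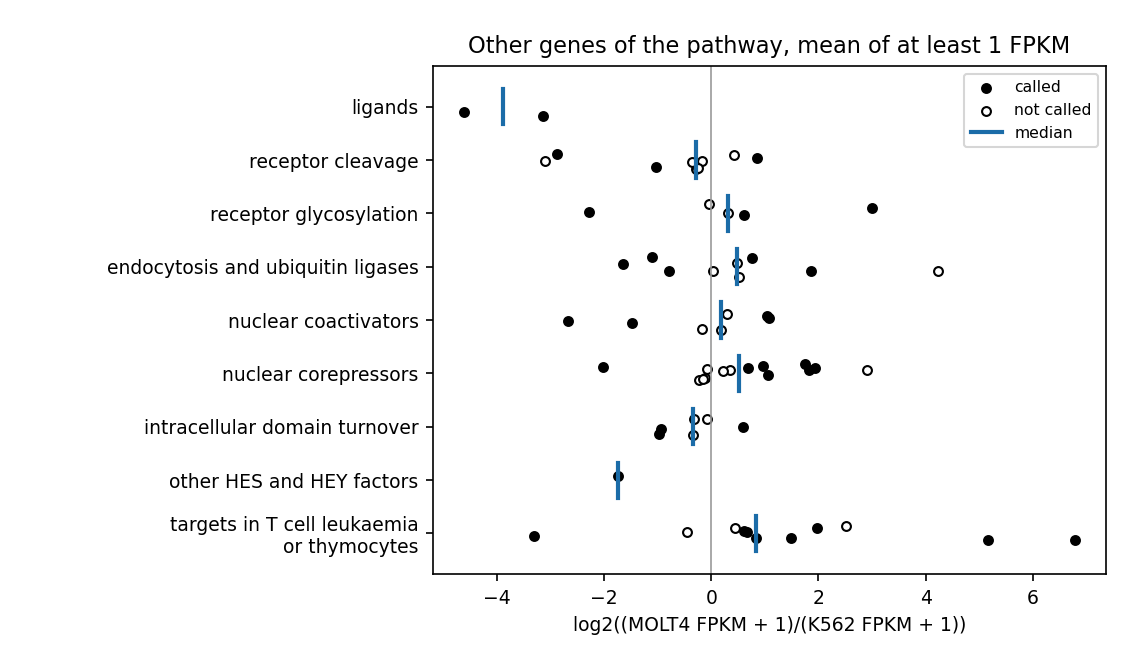
Log2((MOLT4 + 1)/(K562 + 1)) of the measured pathway genes outside the 10 members, by function, called genes filled and others open, with each list's median as a bar. The ligands and HES6 lie toward K562, the corepressors and the T cell targets mostly toward MOLT4, and the cleavage genes on either side of 0.

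Ligands of the pathway were low in MOLT4. Of 7 ligand genes 2 were measured, and the authors' deposited table called each higher in K562: JAG2, a canonical ligand, at 8.45 against 0.0667 FPKM, and DLK1, a non-canonical ligand, at 23.6 FPKM and listed at 0 in MOLT4. The 5 canonical ligands summed to 0.548 FPKM in MOLT4 against 9.51 in K562. DLL3 was at 0.0991 FPKM in MOLT4 against 0.783 in K562. It averaged below 1 FPKM, yet the authors' deposited table also called it higher in K562. DLL1 was at 0.243 and 0.00524 FPKM, DLL4 at 0.0105 and 0.151 FPKM and JAG1 at 0.129 and 0.126 FPKM in MOLT4 and K562. DLK2 was at 1.25 FPKM in MOLT4 against 0.216 in K562. Of the markers of endothelial and stromal cells, which carry ligands in tissue, CDH5 was listed at 0 in each line, and VWF, LUM and PDGFRB reached at most 0.304 FPKM. COL1A1 was at 0.244 FPKM in MOLT4 against 0.393 in K562, and COL1A2 at 0.0183 against 2.44. PECAM1, which blood cells also express, was at 41.2 FPKM in MOLT4 against 10.2 in K562. The full list of 14 markers of other cells held 5 higher in MOLT4 and 8 higher in K562. It summed to 179 FPKM in MOLT4 against 243 in K562. PTPRC gave 136 FPKM of the MOLT4 sum and 70.1 FPKM of the K562 sum. EPCAM was at 52.8 FPKM and LYZ at 105 FPKM in K562. The part of these markers in the result was not tested.

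Genes that cut the receptor differed in each direction. Of 9 measured genes, the authors' deposited table called 1 higher in MOLT4 and 2 in K562 and left 6 uncalled. ADAM10, the protease of the first cut after ligand binding, was at 166 FPKM in MOLT4 against 91.7 in K562. FURIN, which processes the receptor precursor, was at 5.43 and 46.3 FPKM, and NCSTN, the nicastrin subunit of gamma-secretase, at 22.0 and 45.7 FPKM. PSEN2, an alternative catalytic subunit, was at 0.0355 FPKM in MOLT4 against 7.90 in K562 and was not called; it is named outside the naming rule, after its values were seen.

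Of 5 measured glycosylation genes, the authors' deposited table called 2 higher in MOLT4 and 1 in K562. MFNG, a Fringe enzyme that lengthens the O-fucose sugars of the receptor, was at 8.16 FPKM in MOLT4 against 0.145 in K562. POGLUT1, an O-glucosyltransferase, was at 11.2 and 6.99 FPKM. EOGT, which adds O-linked N-acetylglucosamine, was at 0.792 and 7.73 FPKM.

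Of 9 measured genes of endocytosis and ubiquitin ligases, the authors' deposited table called 2 higher in MOLT4 and 3 in K562. DTX3L, a relative of DTX1, was at 26.6 FPKM in MOLT4 against 6.56 in K562, whereas the relative DTX2 was at 5.02 and 11.96 FPKM. NUMBL, a NUMB-like adaptor, was at 3.23 and 12.3 FPKM. MIB1, a ubiquitin ligase that activates ligands, was at 10.4 and 18.6 FPKM. DTX3 was at 17.9 FPKM in MOLT4 against 0.0139 in K562 and was not called in the authors' deposited table (q = 0.107); it too is named outside the naming rule. Among the called deltex genes, DTX1 and DTX3L were thus higher in MOLT4 and DTX2 in K562.

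Nuclear coactivators were mixed, whereas the called corepressors were mostly higher in MOLT4. Of 7 measured coactivators, 2 were called in each direction in the authors' deposited table. MAML1, a Mastermind protein that bridges the intracellular domain to acetyltransferases, was at 19.5 FPKM in MOLT4 against 8.73 in K562, while its relative MAML2 was at 0.153 and 6.41 FPKM. The acetyltransferase genes KAT2A and KAT2B were at 39.4 and 4.03 FPKM in MOLT4 and at 18.7 and 13.05 FPKM in K562. Of 14 corepressor genes, the authors' deposited table called 6 higher in MOLT4 and 1 in K562. L3MBTL3, which binds RBPJ, was at 11.8 and 2.62 FPKM, and the Groucho family gene TLE4 at 17.3 and 3.81 FPKM in MOLT4 and K562. TLE2, of the same family, was at 0.400 FPKM in MOLT4 against 4.71 in K562.

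Of 6 genes of turnover of the intracellular domain, which include the partners of FBXW7 in its ubiquitin ligase, the authors' deposited table called 1 higher in MOLT4 and 2 in K562. The scaffold gene CUL1 was at 31.9 FPKM in MOLT4 against 62.0 in K562, opposite to FBXW7, and the RING subunit gene RBX1 was at 52.3 and 34.2 FPKM. USP28, a deubiquitinase that counters FBXW7, was at 8.92 and 18.6 FPKM. Of 8 other HES and HEY genes 1 was measured: HES6, which antagonises HES1 in mouse neurons, was at 4.98 FPKM in MOLT4 against 19.0 in K562 and the authors' deposited table called it, toward K562.

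Genes described elsewhere as Notch targets in T cell leukaemia or thymocytes were mostly higher in MOLT4. Of 11 measured, the authors' deposited table called 7 higher in MOLT4 and 1 in K562, against 20.8% and 25.3% of all tested genes at that level. The T cell factor genes TCF7 and GATA3 were at 648 and 38.3 FPKM in MOLT4 and at 4.85 and 0.0895 FPKM in K562. SHQ1, an assembly factor of small nucleolar RNPs, was at 38.2 and 9.03 FPKM. The cell cycle inhibitor gene CDKN1A was at 0.892 FPKM in MOLT4 against 17.8 in K562. These genes include T lineage genes, so Notch activity and lineage cannot be told apart in a comparison of 2 lines.

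NOTCH1 and NRARP lie 756 kb apart on chromosome 9, start to start, and differed in opposite directions. Within 1000 kb of the NOTCH1 start, 43 other protein-coding genes were tested and averaged 1 FPKM or more. Their log2 ratios ran from -4.49 to 0.81, with a median of -0.42, so NOTCH1 at 3.05 lay above all 43. The authors' deposited table called 2 of the 43 higher in MOLT4 and 18 in K562 and left 23 uncalled. Among all 14103 tested genes at that level, of any type, 20.8% were called higher in MOLT4 and 25.3% in K562. Their median log2 ratio was -0.06, so the 43 genes leaned toward K562, the direction of NRARP. The next measured gene on the NRARP side, EGFL7, which encodes a secreted vessel factor, was at 0.417 FPKM in MOLT4 against 30.9 in K562. TOR4A, a torsin family gene and the nearest measured neighbour of NRARP on that side, was at 0.0752 and 15.4 FPKM, also higher in K562.

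**Figure D5:**
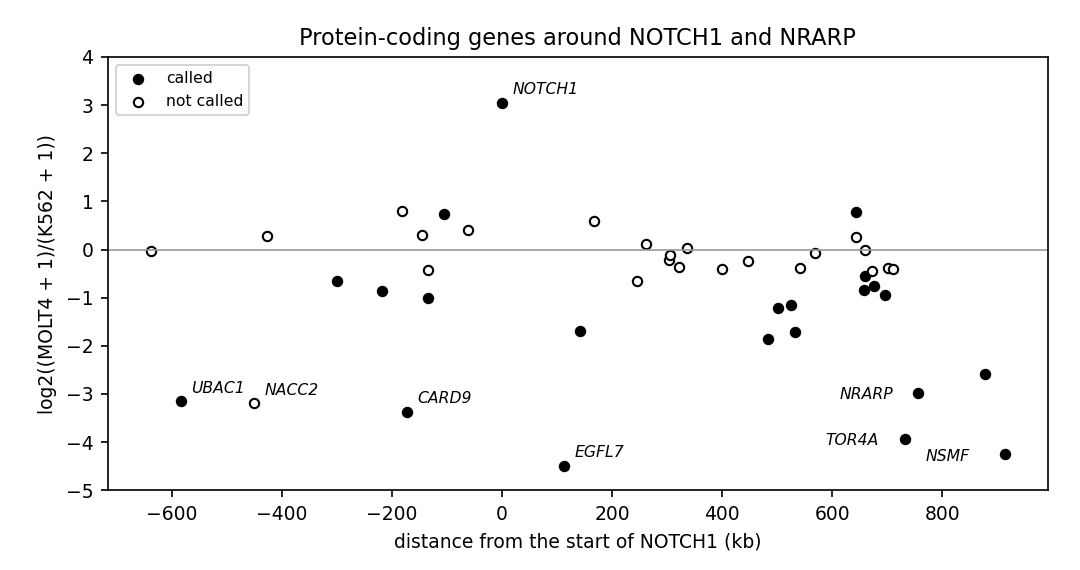
Log2((MOLT4 + 1)/(K562 + 1)) of protein-coding genes that averaged 1 FPKM or more, against distance from the start of NOTCH1 in kb on chromosome 9, called genes filled and others open. NOTCH1 at 3.05 stands above its neighbours, which reach at most 0.81, and NRARP, 756 kb away, lies at -2.98.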

How the data were processed

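RNA of K562 and MOLT4 was sequenced, and the groups are the lines in the sample titles. The tools were Cuffdiff, Cufflinks 2.2.2, TopHat2 2.1.1 and CASAVA 1.8.2, and the builds hg38 and GRCh38.p13, per the submitters' processing notes. The authors deposited FPKM, 1 value per gene and line, with a p-value and q-value per gene. Their normalization between lines is not stated in the sources used here. Depth is unknown, so no interval is given, and no test was added. The deposited q-values equal a Benjamini-Hochberg adjustment over the 18870 tested genes to within 5.25e-07, and the smaller deposited table repeats those genes. Ratios were computed from FPKM with Python 3.11.15 and pandas 2.3.3, tested on simulated data. Called means q of at most 0.05. Alternatives were a q of 0.01, pseudocounts of 0.1 and 0, filters at 1 FPKM, and 2 rescalings. Positions and types of genes came from GENCODE release 29 (GRCh38), to which 96.4% of identifiers matched, and promoters are from RefSeq. Genes named from each pathway list are the up to 4 called genes of largest ratio, and all ligands. Members and lists were chosen with earlier results of these data known. A few genes of these lists are not reported here by name.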

Additional observations from a re-analysis of the deposited data

How the results depend on the processing

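The direction of each of the 10 log2 ratios was the same under all 4 alternatives (a pseudocount of 0.1 FPKM, no pseudocount, centring on the median ratio, and scaling to equal sums). With no pseudocount the ratios of HEY1 and DTX1 were -8.64 and 9.07, against -3.03 and 2.78. The count of members called was 7 at a q of 0.01 too. It was 3 when each line had to reach 1 FPKM, a filter that leaves 5 members. The called genes NOTCH2, NOTCH3 and DTX1 were below 1 FPKM in K562, and NRARP was below it in MOLT4. The shares of all tested genes called at these settings are not given here, so these counts have no background. Members at least 2-fold apart numbered 7 or 8 under all alternatives, with RBPJ near the limit. Pathway genes called higher in MOLT4 numbered 21, and those called higher in K562 numbered 15. When they also had to differ 2-fold, the counts were 12 in MOLT4 and 12 in K562. When each line had to reach 1 FPKM, which leaves fewer genes, the counts were 19 in MOLT4 and 9 in K562. The shares of all tested genes at these 2 settings are not given here. Whether the pathway genes lean to a line beyond their background was therefore not tested. No paired analysis was possible because each line has 1 value per gene. Low values such as those of HEY1 in MOLT4 and DTX1 in K562 are the least certain, since their depth is unknown.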

Other observations

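HEY1 and DTX1 had mirror-image levels but different calls in the authors' deposited table. HEY1, at 0.0184 and 7.32 FPKM, had a q of 0.333, and DTX1, at 5.94 and 0.0111 FPKM, had a q of 0.000203. In a window set after these values were seen, with the lower line above 0 and under 0.1 FPKM and the higher line from 5 to under 10 FPKM, 116 of 217 tested genes were called and 101 were not. A gene that is near 0 in a single line can therefore stand on either side of the call at this level. Other pathway genes with a line near 0 that were not called include TLE1, a Groucho family corepressor gene, at 6.49 FPKM in MOLT4 against 0.00220 in K562, and PTCRA, the pre-T cell receptor alpha gene and a Notch target, at 5.12 and 0.0787 FPKM.

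NALT1, a long non-coding RNA gene beside the start of NOTCH1, was at 1.56 FPKM in MOLT4 against 0.244 in K562 and the authors' deposited table called it higher in MOLT4 (q = 0.00954), the direction of NOTCH1. MYC, a growth regulator that is a Notch target in T cell leukaemia and is marked for degradation through FBXW7, was at 178 FPKM in MOLT4 against 99.1 in K562. IGF1R, a growth factor receptor gene of the same target list, was at 6.82 and 1.78 FPKM, and the interleukin 7 receptor gene IL7R was at 1.26 and 0.308 FPKM. IL2RA, also of that list, was listed at 0 in each line. These genes were named after their values were seen.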
